A study of Homo sapiens with 6 samples.

Results

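The cadherin, catenin and nectin genes of the adherens junction were followed in colorectal cancer stem cells in which PSCA was targeted by siRNA. Members were the entries of the deposited expression table with the gene names CDH1, CDH3, CTNNB1, CTNNA1, CTNND1, NECTIN1, NECTIN2, NECTIN3, NECTIN4 and AFDN, and all 10 names were found, each once, among 58735 genes. Expression was compared between 3 libraries from cells given negative control siRNA (NC) and 3 libraries from cells given PSCA siRNA (siPSCA). CDH1, NECTIN3 and AFDN were lower in siPSCA by 34.4% to 39.3% on the FPKM scale, whereas NECTIN1 and NECTIN2 were higher by 58.8% to 59.6%. CDH3, which encodes P-cadherin, differed by 1.83%, which was within the spread between libraries. Fold changes across all tested genes rose with the GC content of a gene's transcripts. With trends on GC content and length removed, NECTIN1 went from 0.60 to 0.29 and NECTIN2 from 0.65 to 0.16 (log2 fold change). CDH1, NECTIN3 and AFDN stayed lower, at −0.59, −0.39 and −0.41, and CDH3 came to −0.20.

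The cells, named HCT116SCs, were sorted from HCT116, an established colorectal carcinoma line, by their surface CD44 and CD326, and were grown as spheres in serum-free medium. NC libraries carry the genotype label WT and siPSCA libraries the label PSCA knockdown, and both groups had the same medium and liposome reagent and were harvested 48 h after transfection. Each group is 1 sorted line at 1 time point, which of the 3 PSCA siRNA sequences was used for sequencing is not given in the sources used here, and nothing states that the libraries of a group came from separate cultures. The p-values therefore measure only the spread between these libraries, which may be technical.

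Adherens junctions hold epithelial cells together through a pair of adhesion systems. Classical cadherins bind the same cadherin on the neighbouring cell in the presence of calcium, and their cytoplasmic tails carry p120-catenin and beta-catenin, the latter joined by alpha-catenin to actin. Nectins are immunoglobulin-like adhesion molecules that need no calcium and bind afadin, a scaffold that also ties them to actin. In the intestinal epithelium E-cadherin is the main classical cadherin, and beta-catenin outside the junction is the transcriptional partner of the Wnt pathway.

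By GENCODE release 29 (GRCh38), CDH1 (ENSG00000039068) occupies 68737225 to 68835548 of chromosome 16 on the plus strand, and CDH3 (ENSG00000062038) ends 14608 bases before it on the same strand, from 68636189 to 68722616. The catenin genes are CTNNB1 (ENSG00000168036) on chromosome 3 from 41194741 to 41260096, CTNNA1 (ENSG00000044115) on chromosome 5 from 138610967 to 138935034, and CTNND1 (ENSG00000198561) on chromosome 11 from 57753243 to 57819546, all on the plus strand. NECTIN1 (ENSG00000110400) lies on the minus strand of chromosome 11 from 119623408 to 119729084, and NECTIN4 (ENSG00000143217) on the minus strand of chromosome 1 from 161070995 to 161089599. NECTIN2 (ENSG00000130202) lies on chromosome 19 from 44846175 to 44889228, NECTIN3 (ENSG00000177707) on chromosome 3 from 111070071 to 111275563, and AFDN (ENSG00000130396) on chromosome 6 from 167826922 to 167972023, all on the plus strand. The members are thus spread over 7 chromosomes, and only CDH1 with CDH3 are neighbours. The deposited gene lengths cover all exons of a gene, untranslated parts included, and ran from 3502 bases in NECTIN4 to 13720 bases in AFDN.

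The promoters of AFDN, NECTIN3 and NECTIN2 are shown because they head the genes of the nectin system that moved apart, AFDN and NECTIN3 to lower and NECTIN2 to higher levels. They are RefSeq windows on GRCh38.p14, 5′ to 3′, of the bases before a transcript start, ended where GENCODE begins an exon of the gene. AFDN is chr6:167827385-167827634, NECTIN3 is chr3:111071566-111071742 and NECTIN2 is chr19:44846047-44846174, all on the plus strand. The AFDN and NECTIN3 windows lie within the gene spans given above because other transcripts start further upstream. Capitals mark CACCTG or its reverse complement, the E-box bound by SNAI and ZEB factors.
AFDN: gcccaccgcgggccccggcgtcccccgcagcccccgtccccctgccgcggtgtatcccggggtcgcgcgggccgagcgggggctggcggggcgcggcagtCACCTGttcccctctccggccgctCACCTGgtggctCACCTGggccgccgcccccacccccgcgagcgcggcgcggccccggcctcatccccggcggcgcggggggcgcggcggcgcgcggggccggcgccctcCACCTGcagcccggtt
NECTIN3: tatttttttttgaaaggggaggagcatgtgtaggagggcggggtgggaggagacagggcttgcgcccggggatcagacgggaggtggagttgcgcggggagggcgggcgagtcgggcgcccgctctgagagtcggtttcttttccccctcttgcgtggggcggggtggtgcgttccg
NECTIN2: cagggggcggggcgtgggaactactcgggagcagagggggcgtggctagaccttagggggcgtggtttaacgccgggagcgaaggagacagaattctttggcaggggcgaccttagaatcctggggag
The AFDN promoter holds 4 copies of CACCTG in its 250 bases, of which G and C make up 84.8%. Among 35116 RefSeq windows of the same length, 17.5% held CACCTG on either strand and 43 (0.122%) held 4 or more, while the median GC content was 58%. Windows of 1 gene can overlap, and a base composition this rich in G and C goes with AFDN alone among the 3. The full windows of NECTIN3 and NECTIN2 hold no CACCTG. None of the 3 windows holds ACGTG, the core of hypoxia response elements, on either strand, against 18.5% of all windows, and so no copy overlaps CACCTG. RefSeq windows were at hand for 6 of the 10 members, AFDN, CTNNA1, CTNNB1, NECTIN2, NECTIN3 and NECTIN4. Of their 9 windows, only those of AFDN (4 copies) and NECTIN4 (1 copy) held CACCTG.

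Each library had 16099716 to 17302219 reads on genes, recovered from the FPKM values, and each member other than NECTIN4 had at least 527 reads in every library. PSCA itself had 4, 12 and 15 reads in NC and 9, 9 and 7 reads in siPSCA, too few to tell the groups apart. In these data the groups therefore rest on the labels. The authors report less PSCA protein on Western blots of HCT116SCs with each PSCA siRNA, which measures protein and not these libraries. The titles of siPSCA 2 and siPSCA 3 give HCT another number, whereas their other labels give HCT116. Across 13796 tested genes, 50.7% passed an adjusted p under 0.05 in limma, 24.2% lower and 26.6% higher in siPSCA, and the groups of 64.5% did not overlap. Without siPSCA 1 the count over all genes was 4627 in place of 7001. Fold changes rose with the GC content of a gene's transcripts (Spearman 0.67 across 13792 genes, which are not independent), and within NC the difference of NC 3 from NC 1 and NC 2 fell with GC content (−0.57). Values of the 10 members are therefore also given with that trend, and the trend on length, removed in every library, which leaves 39.8% of tested genes called. Every value below with the GC trend removed has the trend on length removed as well. The GC trend and the siRNA cannot be told apart by the design.

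CD44, a marker of the sort, averaged 82.6 ± 4.36 FPKM in NC and 60.7 ± 1.51 FPKM in siPSCA (SD, n = 3 each). EPCAM, which encodes CD326, averaged 107 ± 14.4 FPKM in NC (SD, n = 3) and differed by −0.16 on the log2 scale, short of the threshold (adjusted p = 0.199 from limma). Keratin genes of simple epithelia (KRT8, KRT18, KRT19) lay at 116 to 370 FPKM in both groups, whereas the enterocyte gene VIL1 was at most 0.0247 FPKM on average. CDX2, an intestinal transcription factor, rose from 2.15 ± 0.426 to 4.07 ± 0.0961 FPKM (SD, n = 3 each; log2 fold change 0.70, adjusted p = 0.00387 from limma), and by 0.42 with the trend removed. Of 10 markers of immune, endothelial and stromal cells 8 had a read, CD3E and LUM were at 0, and their sum ran from 3.74 to 6.10 FPKM in NC and from 6.47 to 6.99 in siPSCA, or from 0.389 to 0.483 and 0.481 to 0.617 without COL1A1. In bulk RNA, fewer cells of a type and less RNA per cell cannot be told apart.

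Of the members, 9 reached the mean of 1 FPKM needed for a test, and NECTIN4 did not. In limma 7 of these 9 (77.8%) passed the adjusted threshold, 4 lower and 3 higher, beside 50.7% of all tested genes, and 7 had groups that did not overlap, beside 64.5%. With 9 genes, nothing about the members as a group is read from these counts. The median log2 fold change of the 9 was −0.03, and that of all tested genes was 0.01. The members did not move as a block, and the order of their levels shifted accordingly. In NC, CTNNA1 stood highest, followed by CDH3, CTNNB1, CTNND1, CDH1, NECTIN2, NECTIN3, AFDN, NECTIN1 and NECTIN4, and CTNNB1 overlapped with CTNND1 and NECTIN2 with NECTIN3 across libraries. In siPSCA, CTNNB1 stood above CDH3, NECTIN2 stood above CDH1, and NECTIN1 stood level with AFDN within their ranges.

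**Figure D1:**
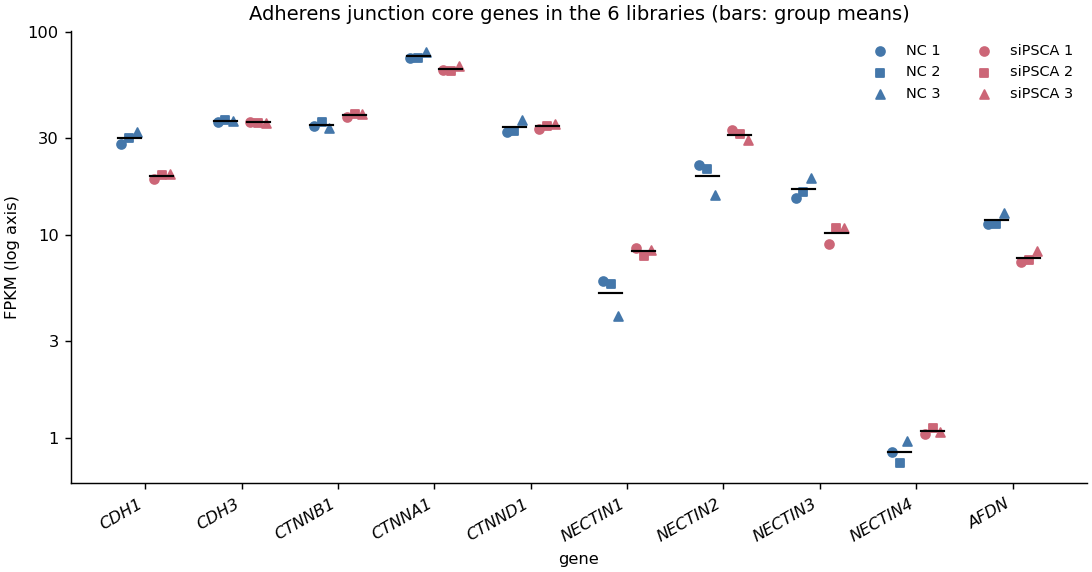
FPKM (log axis) of each of the 10 genes in the 3 NC libraries (blue) and the 3 siPSCA libraries (red), with a bar at each group mean. CDH1, NECTIN3 and AFDN sit lower in every siPSCA library than in any NC library, NECTIN1 and NECTIN2 sit higher, and CDH3 and CTNND1 overlap.

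CDH1, which encodes E-cadherin, was at 28.0, 30.1 and 32.1 FPKM in NC and at 18.8, 19.8 and 19.9 FPKM in siPSCA. Every siPSCA library lay below every NC library, and the gap between the groups was wider than the range within either. The group means were 30.1 ± 2.04 (SD, n = 3) and 19.5 ± 0.610 (SD, n = 3), a ratio of 0.647. On the scale of log2(FPKM + 1) CDH1 fell by 0.60 (SE 0.06, adjusted p = 0.00134 from limma). With the GC trend removed it fell by 0.59 (adjusted p = 0.000389 from limma), and genes of like GC content had a median of 0.01. CDH1 kept its call in 13 of 13 alternative settings.

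CDH3, which encodes P-cadherin, was at 36.0, 37.0 and 36.3 FPKM in NC and at 36.1, 35.5 and 35.7 FPKM in siPSCA. The groups overlapped, and CDH3 varied less between libraries than its neighbour CDH1 did. Its log2 fold change was −0.03 with a 95% interval of −0.12 to 0.07 (adjusted p = 0.620 from limma), so that a change of the size seen for CDH1 lies outside its interval. Genes of the GC content of CDH3, 55.6%, had a median log2 fold change of 0.25, and with the trend removed CDH3 came out lower, at −0.20 (adjusted p = 0.00540 from limma). CDH3 also shares 11.4% of its 50-base words with other genes, the largest share among the members. The antisense gene AC126773.2 covers 694 of its exonic bases (11.1%), again the largest share, and averaged only 0.18 FPKM.

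Within the pair, the share of E-cadherin transcript was lower. CDH1 made up 43.7%, 44.9% and 46.9% of the CDH1 and CDH3 FPKM in NC, and 34.2%, 35.8% and 35.7% in siPSCA. The ranges did not overlap, and P-cadherin was the more abundant of the pair by FPKM in all 6 libraries. Their sum went from 66.5 ± 2.24 FPKM (SD, n = 3) to 55.2 ± 0.382 FPKM (SD, n = 3). These shares and sums follow from the gene values above, as deposited, and were not tested. With the GC trend removed CDH3 was lower as well, at −0.20 beside −0.59 for CDH1. The gap between their log2 fold changes was then smaller but had the same direction.

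**Figure D2:**
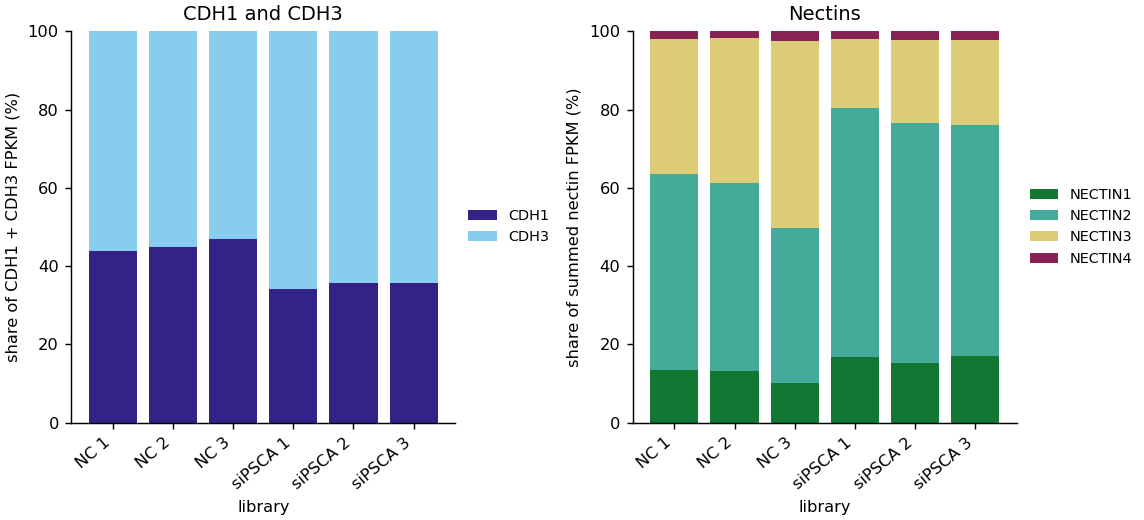
Share (%) of CDH1 and CDH3 in their summed FPKM (left) and of the 4 nectins in theirs (right), as deposited, 1 bar per library. The CDH1 share averages 45.2% in NC and 35.2% in siPSCA, and NECTIN3 takes 39.9% and 20.2% of the nectins.

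The 3 genes most like CDH1 over the 6 libraries were SREK1IP1 (0.016), TWF1 (0.023) and TM9SF3 (0.024). Likeness was the root mean square difference of centred log2(FPKM + 1) values as deposited, a description over 6 libraries only. Their transcripts were 36.71%, 38.98% and 36.54% GC, where the median log2 fold change of like genes was −0.40, −0.35 and −0.40. For CDH1 that median was 0.01. Whether the likeness holds with the GC trend removed was not tested. TWF1 encodes twinfilin, a protein that binds actin monomers.

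Among the catenins, CTNNB1, which encodes beta-catenin, was at 34.3, 35.9 and 33.6 FPKM in NC and at 38.2, 39.6 and 39.3 FPKM in siPSCA. All siPSCA libraries were higher, although the groups lay close together. The means were 34.6 ± 1.16 and 39.0 ± 0.758 FPKM (SD, n = 3 each), and the log2 fold change was 0.17 (SE 0.05, adjusted p = 0.0249 from limma). The call was lost without NC 1 (0.16, adjusted p = 0.0624 from limma), siPSCA 1 (0.19, adjusted p = 0.0586), siPSCA 2 (0.16, adjusted p = 0.0956) or siPSCA 3 (0.16, adjusted p = 0.0780). Once the trends on GC content and length were removed, the value was larger, 0.37 (adjusted p = 0.00613 from limma). Genes of like GC content had a median of −0.10, and the shares of GC content and of length in the move were not separated.

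CTNNA1, which encodes alpha-catenin and was the most abundant member, was at 73.9, 74.0 and 79.8 FPKM in NC and at 64.6, 64.5 and 67.7 FPKM in siPSCA. Its groups did not overlap, and the means were 75.9 ± 3.35 and 65.6 ± 1.83 FPKM (SD, n = 3 each). CTNNA1 fell by 0.21 on the log2 scale (SE 0.05, adjusted p = 0.0177 from limma). This call was lost without siPSCA 1 (−0.20, adjusted p = 0.0673 from limma) or siPSCA 2 (−0.19, adjusted p = 0.0720). With the trends on GC content and length removed, the difference was −0.08 (adjusted p = 0.0747 from limma). The median of genes of like GC content was −0.0031, and the shares of GC content and of length in the move were not separated.

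CTNND1, which encodes p120-catenin and holds cadherins at the cell surface, was at 32.2, 32.4 and 36.9 FPKM in NC and at 33.2, 34.5 and 35.0 FPKM in siPSCA. NC 3 stood above the other NC libraries, and the siPSCA range lay inside the NC range. The log2 fold change was 0.02 (95% interval −0.14 to 0.18, adjusted p = 0.841 from limma). With the GC trend removed it was 0.18 (adjusted p = 0.00820 from limma). CTNND1 shares 321 exonic bases (3.65%) with the readthrough gene TMX2-CTNND1, listed at 0 FPKM, and 289 (3.29%) with AP001931.1, which averaged 1.08 FPKM, both on the same strand.

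Set against the summed cadherins, the catenins that bind their tails stood higher in siPSCA. CTNNB1 FPKM over the sum of CDH1 and CDH3 was 0.535, 0.535 and 0.492 in NC and 0.696, 0.716 and 0.707 in siPSCA. The same ratio for CTNND1 averaged 0.508 ± 0.0292 in NC and 0.619 ± 0.0123 in siPSCA (SD, n = 3 each). CTNNA1 over CTNNB1 went the other way, from 2.20 ± 0.158 to 1.68 ± 0.0473 (SD, n = 3 each). None of the 3 ratios overlapped between the groups, beside 64.5% of all tested genes whose own values did not overlap, and none was tested. As CTNND1 itself overlapped between the groups, its ratio separated through the lower CDH1 in the sum.

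The nectins split by gene. NECTIN1, which encodes a nectin also known as a herpesvirus entry receptor, was at 5.90, 5.71 and 3.97 FPKM in NC and at 8.57, 7.83 and 8.47 FPKM in siPSCA. NC 3 was the lowest, and the groups did not overlap. The means were 5.19 ± 1.06 and 8.29 ± 0.405 FPKM (SD, n = 3 each), with a log2 fold change of 0.60 (SE 0.13, adjusted p = 0.0119 from limma). Without NC 3 it was 0.45 (adjusted p = 0.00143 from limma).

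NECTIN2, the most abundant nectin in 5 of the 6 libraries, was at 22.0, 21.0 and 15.7 FPKM in NC and at 32.7, 31.3 and 29.2 FPKM in siPSCA. NC 3 again lay lowest, and the lowest siPSCA library was above the highest NC library. The means were 19.6 ± 3.39 and 31.1 ± 1.75 FPKM (SD, n = 3 each), with a log2 fold change of 0.65 (SE 0.13, adjusted p = 0.00785 from limma). Without NC 3 it was 0.51 (adjusted p = 0.00106 from limma).

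Both genes are rich in GC, 59.1% in NECTIN1 and 61.2% in NECTIN2, where the median log2 fold change of like genes was 0.40 and 0.46. With the trend removed NECTIN1 was higher by 0.29 (adjusted p = 0.0333 from limma) and NECTIN2 by 0.16 (adjusted p = 0.0299 from limma). NECTIN1 lost this call when a replicate block was added to the corrected fit (0.29, adjusted p = 0.0687 from limma), and NECTIN2 kept its own.

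NECTIN3, whose product binds NECTIN1 and NECTIN2 across cell contacts, was at 15.3, 16.2 and 19.0 FPKM in NC and at 8.98, 10.8 and 10.8 FPKM in siPSCA. NC 3 was the highest here, and the groups did not overlap. The means were 16.8 ± 1.93 and 10.2 ± 1.06 FPKM (SD, n = 3 each), and NECTIN3 fell by 0.67 on the log2 scale (SE 0.10, adjusted p = 0.00391 from limma). Its GC content of 42.6% was the lowest of the 10, and like genes had a median of −0.22. With the trend removed it fell by 0.39 (adjusted p = 0.00680 from limma).

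NECTIN4 was scarce, at 0.850, 0.754 and 0.961 FPKM in NC and at 1.05, 1.12 and 1.07 FPKM in siPSCA. All siPSCA libraries were higher, but the lowest library held 46 reads, at which counting error alone is 14.7%. Taken from the same limma model without the minimum, the log2 fold change was 0.17 with a 95% interval of −0.09 to 0.42 (adjusted p = 0.365 from limma). It was 0.02 with the GC trend removed.

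Within the nectins, the balance of NECTIN2 and NECTIN3 shifted towards NECTIN2. NECTIN2 over NECTIN3 was 1.44, 1.30 and 0.828 in NC and 3.64, 2.90 and 2.70 in siPSCA. In NC 3 alone NECTIN3 exceeded NECTIN2, and every siPSCA ratio was above every NC ratio. The nectins summed to 42.4 ± 2.45 FPKM in NC and 50.7 ± 0.921 FPKM in siPSCA (SD, n = 3 each). The NECTIN1 share of that sum averaged 12.2% and 16.4%, the NECTIN2 share 45.9% and 61.3%, and the NECTIN4 share 2.03% and 2.13%. This sum and these shares are as deposited and were not computed with the GC trend removed. The log2 fold changes of NECTIN1 and NECTIN2 were then only 0.29 and 0.16, so the higher sum may not hold. As NECTIN2 and NECTIN3 lie at opposite ends of the GC range of the members, their ratio moves with the GC trend. As deposited their log2 fold changes were 0.65 and −0.67, and with the trend removed they were 0.16 and −0.39, so that the gap between them was smaller but had the same direction.

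AFDN, which encodes afadin, was at 11.3, 11.3 and 12.8 FPKM in NC and at 7.32, 7.53 and 8.33 FPKM in siPSCA. The groups were well apart, with means of 11.8 ± 0.886 and 7.72 ± 0.534 FPKM (SD, n = 3 each). AFDN fell by 0.55 on the log2 scale (SE 0.07, adjusted p = 0.00253 from limma). At its GC content of 48.3% the median of like genes was −0.0031. With the trends on GC content and length removed, AFDN fell by 0.41 (adjusted p = 0.00150 from limma). The shares of GC content and of length in this move were not separated. Against the nectins it binds, AFDN had a ratio of 0.279 ± 0.0383 in NC and 0.153 ± 0.0134 in siPSCA (SD, n = 3 each, not tested). This ratio is as deposited and was not computed with the trends removed.

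**Figure D3:**
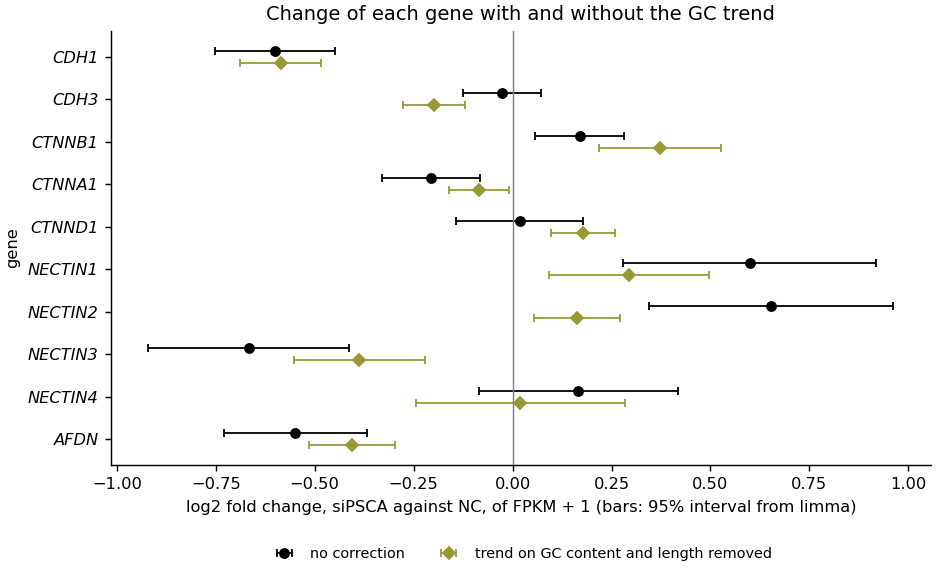
Log2 fold change of FPKM + 1, siPSCA against NC, for each gene with its 95% interval from limma, as deposited (black) and with the trend on GC content and length removed (olive). CDH1 (−0.60 and −0.59), NECTIN3 and AFDN stay below 0 under both, and NECTIN2 moves from 0.65 to 0.16.

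With the trend removed, 8 of the 9 tested members passed the threshold, 4 higher and 4 lower, beside 39.8% of all tested genes. CDH3 and CTNND1 joined the called genes and CTNNA1 left them. CDH1 and AFDN lay below the lower quartile of genes of like GC content, which was −0.18 for CDH1 and −0.21 for AFDN, and NECTIN3 lay below its own of −0.42. NECTIN1 and NECTIN2 lay just above the upper quartile of theirs, 0.60 and 0.65. CTNNB1 was above its upper quartile of 0.08, CDH3 was below its lower quartile of 0.01, and CTNNA1, CTNND1 and NECTIN4 were inside. By the exact permutation test over 3 against 3 libraries, whose smallest p is 0.1, every member reached 0.1 except CDH3 (p = 0.2) and CTNND1 (p = 0.8).

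**Figure D4:**
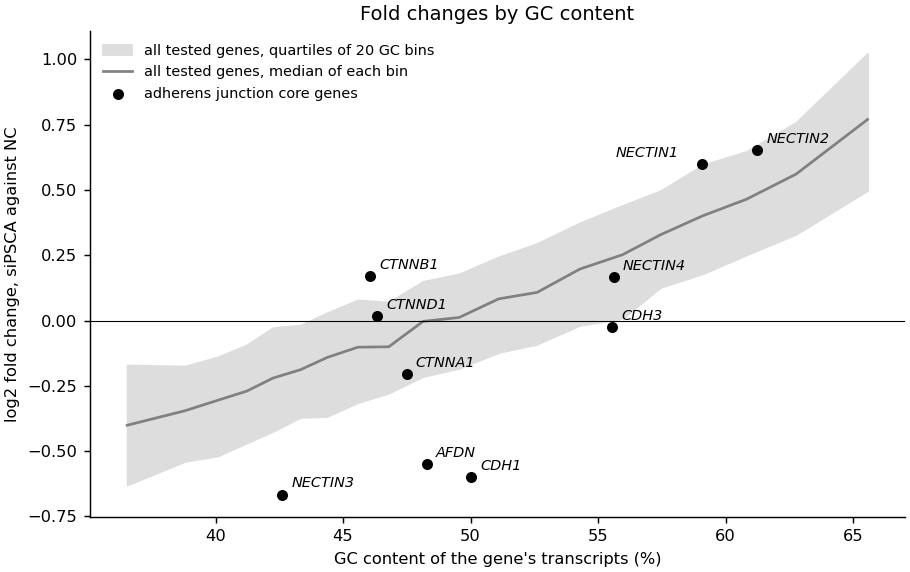
Log2 fold change, siPSCA against NC, against the GC content (%) of a gene's transcripts, for the 10 members (points) over the median (line) and quartiles (band) of all tested genes in GC bins. CDH1 and AFDN lie far below the band, where the medians are 0.01 and −0.0031, and NECTIN1 and NECTIN2 lie at its upper edge.

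The other genes of the junction were taken from lists of 85 genes, of which 76 had a read and 54 were tested. Of the 54, 36 (66.7%) passed the threshold, 17 higher and 19 lower, beside 50.7% of all tested genes, with a median log2 fold change of −0.02. With the GC trend removed 24 passed, 13 higher and 11 lower, beside 39.8% of all tested genes, a share close to that of the lists. As with the members, calls ran in both directions.

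Few other cadherins were on. Of 20 listed, 2 were tested, and CDH24 alone passed, at 6.61 ± 1.83 FPKM in NC and 12.9 ± 0.532 in siPSCA (SD, n = 3 each; log2 fold change 0.90, adjusted p = 0.00754 from limma). CDH24 was at 0.25 and still called with the GC trend removed. CDH15, the other tested, was at 0.00022 as deposited but came out lower, at −0.52, with the trend removed (adjusted p = 0.0122 from limma). N-cadherin (CDH2) averaged 0.0116 FPKM in NC, from 3 reads in NC 2, and was listed at 0 in all siPSCA libraries. CDH2 was thus at the floor in both groups and was not tested. Of the relatives of the catenins, 3 of 5 tested rose and 1 fell, beside 50.7% of all tested genes called. JUP, which encodes plakoglobin and can stand in for beta-catenin on cadherin tails, went from 64.1 ± 2.93 to 99.4 ± 3.06 FPKM (SD, n = 3 each; log2 fold change 0.62, adjusted p = 0.000770 from limma), but to 0.14 with the GC trend removed (adjusted p = 0.152 from limma). ARVCF, a relative of p120-catenin, rose by 0.90, and CTNNAL1, a relative of alpha-catenin, fell by 0.36, a call that was lost without siPSCA 1 or siPSCA 2 (adjusted p up to 0.0837 from limma). With the GC trend removed ARVCF was at 0.25 and still called, and CTNNAL1 was at −0.09 and not called (adjusted p = 0.278 from limma). Both tested nectin-like genes passed, beside 50.7% of all tested genes, PVR at 0.20 and CADM4 at 0.58. CADM4 was at 0.18 and still called with the GC trend removed, whereas PVR turned to −0.08 with the GC trend removed and kept its call only without NC 3 (0.26) among the omissions of 1 library (0.16 to 0.26).

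Of 10 tested actin linkers and partners of afadin or the catenins, 2 rose and 2 fell, beside 50.7% of all tested genes called. SSX2IP, which encodes an afadin-binding protein also called ADIP, fell by 0.64, from 14.5 to 8.88 FPKM (adjusted p = 0.00368 from limma), alongside AFDN. VCL, which encodes vinculin, an actin-binding partner of alpha-catenin, fell by 0.36 (adjusted p = 0.00382 from limma), and both stayed called with the GC trend removed, SSX2IP at −0.24 and VCL at −0.25. CAMSAP3 rose by 0.89 and ACTN4 by 0.22, to 0.16 and −0.12 with the trend removed, neither past the threshold. CAMSAP3 was at 0.59 without NC 3 and lost its call without any siPSCA library (adjusted p up to 0.0784 from limma).

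Of 8 genes for the turnover of E-cadherin, 2 rose and 5 fell, beside 50.7% of all tested genes called. With the GC trend removed 2 were higher and 1 was lower, beside 39.8%, so that most of the falls did not hold. ADAM10, a protease that sheds the E-cadherin ectodomain, fell by 0.50, from 12.1 to 8.26 FPKM (adjusted p = 0.00177 from limma), but had −0.06 with the GC trend removed. NUMB, an endocytic adaptor, fell by 0.48 and kept its call with the trend removed, at −0.31. PIP5K1C, which makes the lipid that recruits clathrin adaptors, rose by 0.66, and AP1M2, a sorting adaptor subunit of epithelia, by 0.45. With the trend removed PIP5K1C was at 0.08 (adjusted p = 0.164 from limma) and no longer called, and AP1M2 was at 0.20 and still called. RAB11A of recycling endosomes passed in both directions, at −0.17 without and 0.15 with the trend removed, and is named outside the rule for its turn. Its call without the trend removed was lost without NC 2 or any siPSCA library (−0.20 to −0.14 over the 6 omissions).

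Of 10 junctional kinases and phosphatases, 3 rose and 5 fell, beside 50.7% of all tested genes called. With the GC trend removed the counts were again 3 and 5, beside 39.8% of all tested genes. SRC, a tyrosine kinase that phosphorylates junction proteins, rose by 0.74, from 6.79 to 11.8 FPKM (adjusted p = 0.00790 from limma), and PTPN14, a phosphatase, rose by 0.39. FER, a kinase that binds p120-catenin, fell by 0.67, from 7.78 to 4.53 FPKM (adjusted p = 0.00154 from limma), and YES1, a relative of SRC, fell by 0.54. All 4 kept their calls with the trend removed, SRC at 0.41, FER at −0.22 and YES1 at −0.19, all smaller, and PTPN14 at 0.59, which was larger.

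Of 11 tested small GTPases and their regulators, 2 rose and 5 fell, beside 50.7% of all tested genes called. RAPGEF1, an activator of Rap1, rose by 0.48 and VAV2 by 0.25, while RAP1A fell by 0.48 and IQGAP1, a scaffold that binds beta-catenin, by 0.47. Once corrected for GC content and length, the list held 2 higher and 1 lower genes, beside 39.8% of all tested genes called. RAPGEF1 alone of the 4 named then kept its call, at 0.23. VAV2 lost its call without NC 1 or any siPSCA library (0.18 to 0.30 over the 6 omissions), and IQGAP1 without siPSCA 1 (adjusted p = 0.0504 from limma).

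Of 10 listed regulators of CDH1 transcription 6 were tested, 2 rose and 1 fell, beside 50.7% of all tested genes called. SNAI1, a repressor of CDH1 that binds CACCTG, was at 4.54 ± 0.629 FPKM in NC and 6.33 ± 0.486 in siPSCA (SD, n = 3 each; log2 fold change 0.41, adjusted p = 0.0176 from limma), but at 0.11 with the GC trend removed (adjusted p = 0.189 from limma). The SNAI1 call was also lost without siPSCA 1 or siPSCA 2 (adjusted p up to 0.0651 from limma). TCF3, another E-box repressor, rose by 0.63, and by 0.16 with the trend removed. ELF3, an epithelial ETS factor, fell by 0.60, from 2.44 to 1.27 FPKM (adjusted p = 0.00549 from limma), and by 0.81 with the trend removed. ZEB1 averaged 0.911 FPKM in NC and 0.656 in siPSCA, below the minimum for a test, and ZEB2 was at most 0.00311 FPKM on average.

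**Figure D5:**
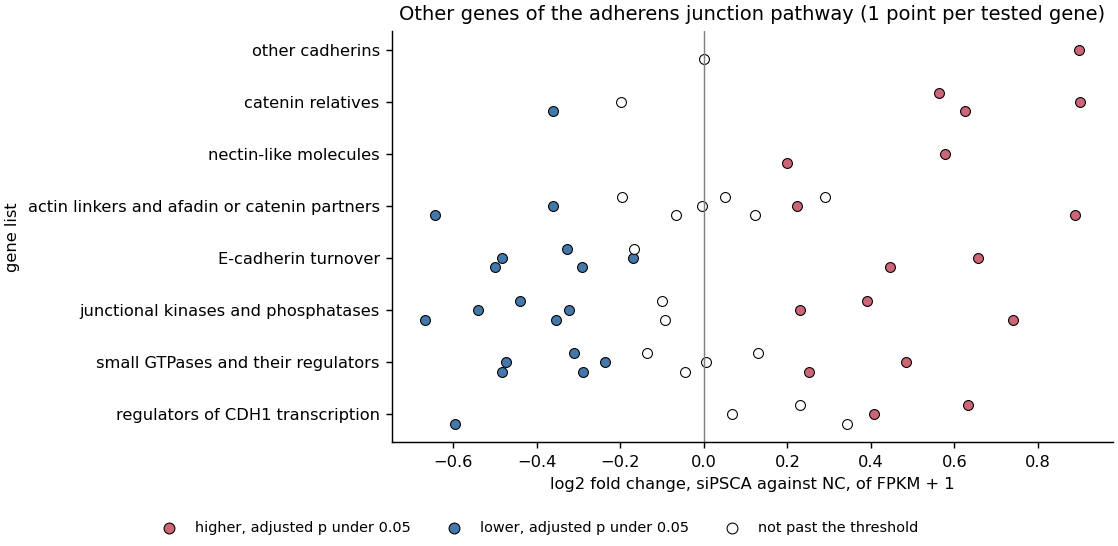
Log2 fold change of FPKM + 1, siPSCA against NC, of the 54 tested genes in the 8 pathway lists, 1 point per gene, filled where the adjusted p from limma was under 0.05 (red higher, blue lower). All lists with more than 2 tested genes hold calls in both directions, 17 higher and 19 lower in all.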

How the data were processed

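RNA of HCT116SCs was sequenced in 6 libraries, and the authors deposited gene FPKM values (fragments scaled by exonic length and library size) with gene lengths. The aligner, the counting program and the use of strand are not given in the sources used here. All 58735 identifiers and positions match GENCODE release 29. FPKM times length was a whole multiple of 1 step in 100% of values (tolerance 0.05 reads), so reads were recovered, 16099716 to 17302219 per library. That depth sets counting error only, which was at most 4.36% for tested members.

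Groups followed the labels. The linear model of limma 3.58.1 (R 4.3.3, eBayes with trend) took log2(FPKM + 1) as the response and group as its single term, over the 13796 genes with a mean of at least 1 FPKM. P-values are 2-sided and adjusted by Benjamini-Hochberg over all of them. Fold changes on this scale understate the change of low genes. As a correction, splines of 5 degrees of freedom on GC content and on length were subtracted library by library. Genes under the minimum came from the model over the 34391 genes with a read. Alternatives were a pseudocount of 0.1, no minimum, equal library medians, limma-voom on recovered reads, a replicate block and the omission of each library. Python 3.11.15, pandas 2.3.3, numpy 2.4.6, scipy 1.17.1 and matplotlib 3.10.9 were used. The limma step was tested on simulated counts without a GC trend, which cannot speak for calls in data that have one.

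The members and lists were chosen with earlier results of these data known. Named were all members, the 2 largest rises and 2 largest falls per pathway list among called genes whose groups did not overlap, the 3 genes most like CDH1, and PSCA.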

Additional observations from a re-analysis of the deposited data

How the results depend on the processing

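The calls of CDH1, NECTIN2, NECTIN3 and AFDN held under every alternative run. The replicate numbers of the labels are shared only: deviations of same-numbered libraries correlated at 0.096, 0.013 and 0.13, and NC 2 correlated best with siPSCA 1. With a replicate block 7 members, 35 pathway genes and 6725 genes in all passed, against 7, 36 and 7001 without it. With the replicate block and the GC and length trend removed these were 7, 18 and 4527. NECTIN1 then lost its call (0.29, adjusted p = 0.0687 from limma). CTNNB1 lost its call at equal library medians (0.12, adjusted p = 0.105 from limma) and without NC 1, siPSCA 1, siPSCA 2 or siPSCA 3. CTNNA1 lost its call without siPSCA 1 or siPSCA 2 and with the GC and length trend removed (−0.08). Leaving out 1 library gave 5 to 7 called members, 27 to 37 pathway genes and 4627 (without siPSCA 1) to 7425 (without NC 3) genes in all; without siPSCA 2 it gave 4734. Members whose groups overlapped changed sign: CDH3 was 0.00036 with limma-voom, and CTNND1 was −0.033 at equal library medians and −0.016 to 0.081 when 1 library was left out. The causes of these shifts were not tested, and each omission also leaves fewer libraries. Depth limits NECTIN4 and PSCA, and 3 libraries a group limit the rest.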

Other observations

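CDC42, a small GTPase of the junction, was listed at only 0.266 to 0.612 FPKM, under the minimum for a test. The gene AL031281.2 on the same strand covers 2055 of its 3598 exonic bases (57.1%) and was itself at 0.106 to 0.298 FPKM. The level of CDC42 in this table is therefore uncertain, and how the reads of shared exons were counted is not given in the sources used here.

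PTPRF, a receptor phosphatase found at cell junctions, was chosen after its values were seen. It was at 35.5 ± 1.84 FPKM in NC and 25.9 ± 0.550 in siPSCA (SD, n = 3 each) and fell by 0.44 on the log2 scale (adjusted p = 0.00189 from limma). Although its transcripts are 58.9% GC, close to NECTIN1, it fell by 0.70 with the GC trend removed (adjusted p = 0.000226 from limma).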
